A study of Canis lupus familiaris with 29 samples.

Results

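The subject is a set of 10 immediate early transcription factors, FOS, FOSB, FOSL1, FOSL2, JUN, JUNB, ATF3, EGR1, NR4A1 and NR4A3, and their RNA levels in canine pheochromocytomas and paragangliomas (PPGLs) and in normal adrenal medullas (NAMs). The members were chosen by gene name, and each of the 10 names occurred once among the 30951 genes of the count table. RNA was sequenced from 29 samples, 1 library each, with stranded libraries of polyadenylated RNA. The 10 NAMs came from healthy research dogs that had been euthanized for other reasons, and these medullas were snap-frozen. The 19 tumors came from client-owned dogs of several clinics, were taken at surgery or after euthanasia, and were snap-frozen or kept in RNAlater first. The authors divided the tumors into PPGL group 1, with 7 tumors, and PPGL group 2, with 12, on a principal component plot of the same samples, after setting aside 2 outlying tumors, so that a p-value between these groups describes the split and is not an independent test of it. Per the paper, more dogs of PPGL group 1 than of PPGL group 2 went without treatment of their tumor. Most dogs of PPGL group 1 had a tumor thrombus, which the paper says might have been sampled in place of the adrenal mass. How each tumor was taken is not given in the sample labels, and its part in the results was not tested.

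The libraries held 19258054 to 35918182 counts in NAMs, 18493540 to 31919833 in PPGL group 1 and 18208718 to 24569667 in PPGL group 2. Levels are given as CPM, counts scaled to library size after TMM normalization. A floor of 3 counts per library, taken as counts over the library total before TMM scaling, corresponded to 0.0835 to 0.156 CPM in NAMs, 0.0940 to 0.162 CPM in PPGL group 1 and 0.122 to 0.165 CPM in PPGL group 2, and it covers counting error only.

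Immediate early genes are transcribed within minutes of a stimulus, without new protein synthesis, through factors such as SRF and CREB that are already present and are switched on by kinases. FOS proteins pair with JUN proteins, and ATF3 can join them, to form the dimers known as AP-1, while EGR1 and the NR4A receptors bind DNA on their own. In chromaffin cells, nerve input and depolarization are classic triggers of these genes, and removal or handling of a tissue can induce them too. Time from loss of blood supply to freezing is not given in the sample labels, and it cannot be told apart from tumor or group in these data.

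The tissue markers were checked first. TH, the rate-limiting enzyme of catecholamine synthesis, averaged 2108 CPM in NAMs, 1992 in PPGL group 1 and 2352 in PPGL group 2, and the granule protein CHGB averaged 26701, 28925 and 33978 CPM in the same order. These averages hide a wide spread between samples. The mean log2 CPM of 12 chromaffin markers was at least 8.13 in NAMs. It was lower in replicates 3, 5 and 7 of PPGL group 1 (6.82, 5.34 and 7.15). The same held for replicates 1, 7, 9 and 11 of PPGL group 2 (7.79, 7.99, 7.69 and 7.32). NAMs also contained RNA of the adrenal cortex. The summed level of 10 cortex markers, of which CYP17A1 was the most abundant, ran from 12658 to 62033 CPM in NAMs, with a median of 33210 CPM. It ran in PPGL group 1 from 23.4 to 1138 CPM with a median of 203 CPM, and in PPGL group 2 from 202 to 31141 CPM with a median of 3359 CPM. None of the 10 cortex markers was at 0 in all samples. The cortex markers thus moved with both comparisons below, and their part in each result was examined only with a cortex score, as a covariate in the fits and in correlations within the tumor groups.

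The first comparison asks how the tumors differ from normal medulla. FOS was 11.9-fold higher in PPGLs than in NAMs, while the nuclear receptors NR4A1 and NR4A3 were 3.65-fold and 4.73-fold lower, and the other 7 members did not pass the test. Of the 14766 genes tested with the quasi-likelihood F test of edgeR, 22.3% were called higher and 15.2% lower at a Benjamini-Hochberg adjusted p under 0.05, against 1 and 2 of the 10 members. With the further requirement of a log2 fold change (log2 FC) past 3 in either direction, 2.07% of all genes were called higher and 0.792% lower. FOS met that requirement, and 0 members were called lower by it. At an unadjusted p under 0.05, edgeR gave 1 member higher and 3 lower, and DESeq2 and the Mann-Whitney U-test each gave 1 higher and 3 lower at an adjusted p under 0.05. Over all genes these 3 counts were 4129 higher and 2700 lower, 3511 and 2546, and 2914 and 2990. The median log2 FC was 0.44 over the members and 0.13 over all genes tested.

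The second comparison asks how the tumor groups differ. FOSL2 was 9.23-fold lower in PPGL group 1 than in PPGL group 2, with no overlap of the groups, ATF3 was lower as well, and FOSL1 was called on counts close to the floor. The share of all genes without overlap between these groups is not given here. Since the groups were drawn on the same samples, the lack of overlap is a description only. Of 14666 genes tested, 3.97% were called higher and 2.95% lower in PPGL group 1 at an adjusted p under 0.1, the threshold used for this contrast. Among the members 0 were called higher and 3 lower, and FOSL1, 1 of these 3, entered the test only through tumors of PPGL group 2, where it is high, so that only FOSL2 and ATF3 carry weight in this count. At an unadjusted p under 0.05, edgeR gave 0 members higher and 5 lower. DESeq2 also gave 0 and 5 at its adjusted p, and the Mann-Whitney U-test gave 0 and 1. The same 3 counts over all genes were 1601 higher and 1244 lower, 916 and 877, and 117 and 182. With a log2 FC below -3 as well, 1.11% of all genes and 2 members, FOSL2 and, with the same reserve, FOSL1, were called. The median log2 FC was -1.72 over the members and 0.04 over all genes.

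Each tumor group was also set against the same 10 NAMs in 1 fit of all 29 samples and 15201 genes, so these contrasts share their controls and stand side by side only. In PPGL group 1, 21% of all genes were called higher and 14.1% lower, against 1 member higher (FOS) and 4 lower (FOSL1, FOSL2, NR4A1 and NR4A3). FOSL1 is counted here with reserve, since it entered the test through other groups, with 0 tumors of PPGL group 1 over the count filter. In PPGL group 2, 18.4% of all genes were called higher and 14.5% lower, against 1 member higher (FOS) and 0 lower by edgeR. At an unadjusted p under 0.05 the latter contrast had 2 members lower, NR4A1 and NR4A3, and no other tool was run on either contrast. Members' median log2 FCs were -0.88 and 0.88 for PPGL group 1 and PPGL group 2, where all genes had medians of 0.13 and 0.09.

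**Figure D1:**
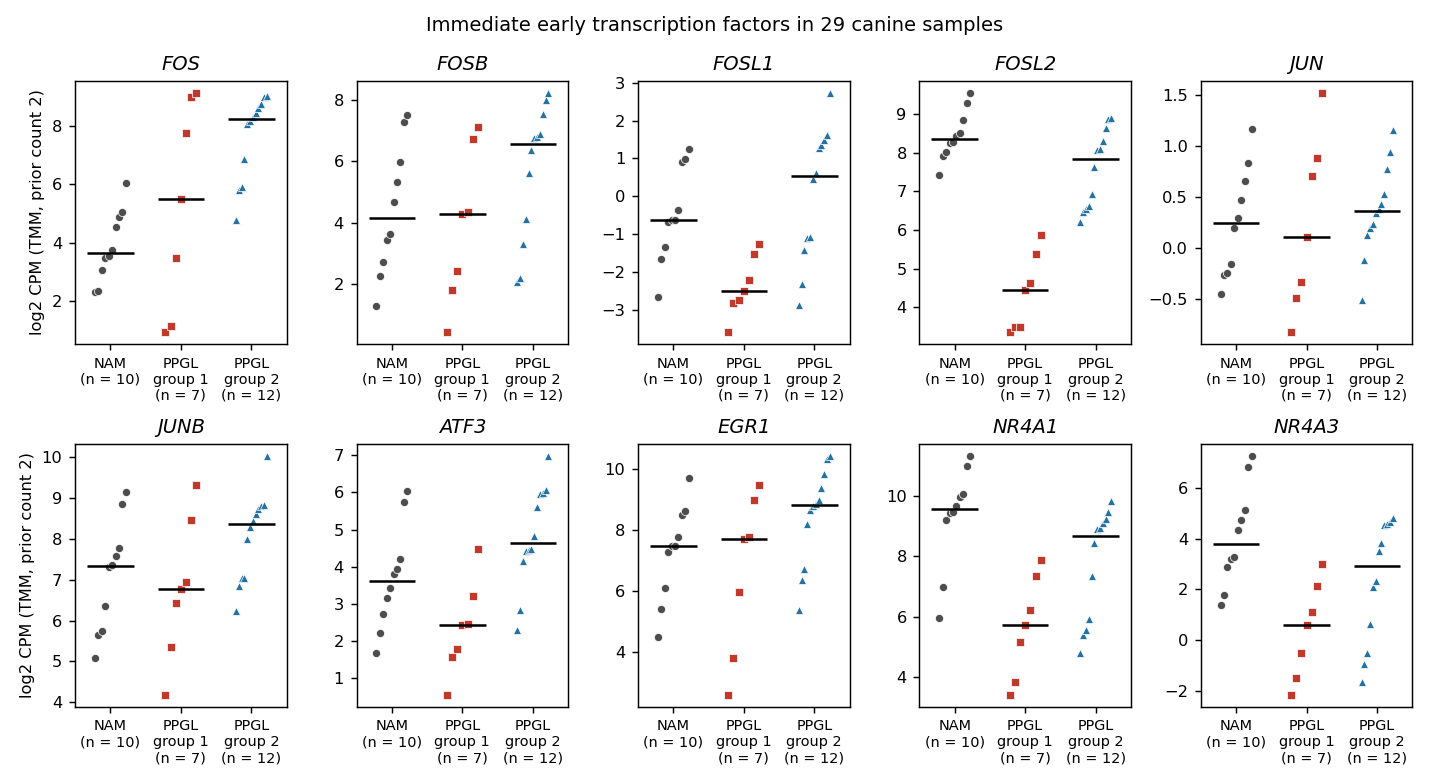
Level of each of the 10 members in every sample, as log2 CPM (prior count 2) on the vertical axis, with 1 point per sample and a bar at the median of each group for 10 NAMs and for the PPGL groups of 7 and 12. FOS lies above every NAM in 12 of 19 tumors, and FOSL2 in all 7 tumors of PPGL group 1 lies below every other sample.

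FOS (ENSCAFG00000017040, chromosome 8 from 48331026 to 48333467 on the plus strand of CanFam3.1) encodes the founding member of its family, which needs a JUN partner to bind DNA. In NAMs it had a lowest level of 4.88, a median of 12.5 and a highest level of 65.0 CPM. In PPGL group 1 the corresponding values were 1.84, 44.8 and 556 CPM, and in PPGL group 2 they were 27.2, 300.2 and 520 CPM. PPGL group 1 thus held both the lowest and the highest FOS level of all 29 samples. The log2 FC between PPGLs and NAMs was 3.57 (SE 0.76, adjusted p = 0.000571). In bulk tissue, fewer cells of a type and less RNA per cell cannot be told apart, here and for every member below.

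The rise of FOS was not shared by every tumor. Of the 7 tumors of PPGL group 1, replicates 2, 3 and 5 lay above every NAM, at 501, 556 and 217 CPM, and replicates 6 and 7 lay below every NAM, at 2.16 and 1.84 CPM. In PPGL group 2, 9 of 12 tumors lay above every NAM and none lay below the lowest one. Against NAMs the log2 FC was 3.21 (SE 0.82, adjusted p = 0.00314) for PPGL group 1 and 3.74 (SE 0.79, adjusted p = 0.000772) for PPGL group 2. The mean log2 CPM lay closer together for PPGL group 1, at 5.28 (SD 3.50) against 3.90 (SD 1.21) in NAMs. It was 7.63 (SD 1.43) in PPGL group 2. The tumor groups overlapped, and their difference did not pass the test (log2 FC -0.53, SE 0.86, adjusted p = 0.782). That value was unsteady. It was -1.09 with the cortex score as a covariate and ran from -2.25 to -0.46 over all alternatives. With 1 tumor left out it ran from -1.07 without replicate 3 of PPGL group 1 to -0.30 without its replicate 7. With the cortex score as a covariate the log2 FC between PPGLs and NAMs was 3.77 (adjusted p = 0.00519), and over all alternatives and left-out samples it stayed between 3.34 and 3.97.

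FOSB (ENSCAFG00000004443, chromosome 1 from 110087036 to 110092818, minus strand) encodes a relative of FOS that also has a long-lived splice form. It ran from 2.36 to 184 CPM in NAMs (median 18.8), from 1.27 to 141 CPM in PPGL group 1 (median 19.6) and from 4.11 to 300.1 CPM in PPGL group 2 (median 95.6). The 3 groups overlapped widely, with 3 tumors above every NAM, all of PPGL group 2, and 1 tumor below, replicate 7 of PPGL group 1. Neither comparison passed the test, with a log2 FC of 0.69 (SE 0.77, adjusted p = 0.508) between PPGLs and NAMs and of -1.30 (SE 0.91, adjusted p = 0.457) between the tumor groups.

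FOSL1 (ENSCAFG00000013132, chromosome 18 from 51368352 to 51373748, plus strand), which encodes the FOS relative FRA1, was close to the floor. Its highest level was 2.29 CPM in NAMs, 0.333 CPM in PPGL group 1 and 6.53 CPM in PPGL group 2, with medians of 0.569, 0.0941 and 1.38 CPM. In PPGL group 1, 5 of 7 tumors had at most 3 counts, and 1 of these had 0. The log2 FC between the tumor groups was -3.61 (SE 0.88, adjusted p = 0.0313), which depends on the prior count because so many values are at the floor. FOSL1 entered that test through 7 tumors of PPGL group 2 over the filter of 0.454 CPM, the smallest number that lets a gene in, while 0 tumors of PPGL group 1 reached it, so the call rests on those 7 tumors and is no support of its own.

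The call of FOSL1 between the tumor groups was lost under the Mann-Whitney U-test (adjusted p = 0.132) and with the cortex score as a covariate (log2 FC -3.26, adjusted p = 0.475), where its adjusted p over all alternatives ran from 0.000306 to 0.475. Without any 1 of replicates 1, 3, 4, 9, 10, 11 and 12 of PPGL group 2 it fell under the filter and had no value. Against NAMs, FOSL1 was called lower in PPGL group 1 (log2 FC -2.66, SE 0.83, adjusted p = 0.0140), where again 0 tumors reached the filter, and did not pass the test in PPGL group 2 (log2 FC 0.96, SE 0.64, adjusted p = 0.249). Over all PPGLs the log2 FC was 0.37 (SE 0.73, adjusted p = 0.718), and its sign turned without replicate 1 of PPGL group 2, to -0.06, and in the fit of 3 groups, to -0.84, whereas with the cortex score as a covariate it was 2.37 (adjusted p = 0.0665).

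FOSL2 (ENSCAFG00000005212, chromosome 17 from 22341322 to 22361772, plus strand) encodes FRA2, a FOS relative that lacks the strong activation domain of FOS. It ranged from 173 to 748 CPM in NAMs, with a median of 330.0 CPM. In PPGL group 1 it ranged from 10.2 to 58.2 CPM (median 21.7), and in PPGL group 2 from 73.9 to 475 CPM (median 233). All 7 tumors of PPGL group 1 lay below every tumor of PPGL group 2 and below every NAM, whereas 5 of the 12 tumors of PPGL group 2 lay below every NAM. How many of all genes separate the samples in this way is not given here. The log2 FC between the tumor groups was -3.21 (SE 0.51, adjusted p = 0.00541), the 9th smallest p of 14666 genes.

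Set against NAMs, FOSL2 fell by 3.91 on the log2 scale in PPGL group 1 (SE 0.49, adjusted p = 1.38e-06), and in PPGL group 2 its log2 FC was -0.68 (SE 0.36, adjusted p = 0.140). For PPGLs as a whole the log2 FC was -1.26 (SE 0.51, adjusted p = 0.0511), just short of the threshold. The fit of 3 groups, which weights the tumor groups equally and also takes their difference out of the residual spread, gave a log2 FC of -2.29 (adjusted p = 3.95e-06). The threshold was also passed with DESeq2 size factors (adjusted p = 0.0473), the leukocyte score (0.0203), the Wald test of DESeq2 (0.0270) and the Mann-Whitney U-test (0.0159). The same held on leaving out replicate 9 of the NAMs (adjusted p = 0.0468) or replicate 1, 4, 7, 8, 10 or 11 of PPGL group 2 (0.0273, 0.0343, 0.0476, 0.0424, 0.0462 and 0.0253). With the cortex score as a covariate the value between PPGLs and NAMs turned to 0.46 (adjusted p = 0.660), and that between the tumor groups was -3.44 with the call lost (adjusted p = 0.111). Within PPGL group 2, the 12 tumors of which differed widely in cortex RNA, FOSL2 and the cortex score had a Pearson r of 0.0337 (permutation test, adjusted p = 0.991) and a Spearman rho of 0.0280.

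Within the FOS family, levels per exon length (RPKM) allow the members to be set beside each other. FOSL2 held a median of 84.3% of the family's summed RPKM in NAMs and was the most abundant of the 4 genes in all 10 of them. In the tumors its median share was 35.3% in PPGL group 1 (from 1.27% to 74.2%) and 33.9% in PPGL group 2 (from 8.03% to 78.6%). FOSL2 was the most abundant of the 4 in 2 of 7 and 3 of 12 tumors. FOS held a median of 3.94% in NAMs, 55.5% in PPGL group 1 and 59.6% in PPGL group 2, and it was the most abundant in 5 of 7 and 9 of 12 tumors. These shares are a description, and no test was run on them.

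JUNB (ENSCAFG00000028848, chromosome 20 from 49359399 to 49360442, minus strand), encodes a JUN relative and is itself an immediate early gene. Its lowest, median and highest levels were 33.7, 161 and 571 CPM in NAMs, 18.1, 110 and 643 CPM in PPGL group 1 and 75.3, 331 and 1052 CPM in PPGL group 2. A single tumor of each group lay above every NAM, and replicate 7 of PPGL group 1 lay below every NAM. No difference passed the test, with a log2 FC of 0.55 (SE 0.51, adjusted p = 0.414) between PPGLs and NAMs and of -0.81 (SE 0.60, adjusted p = 0.482) between the tumor groups.

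The gene annotated as JUN (ENSCAFG00000018897, chromosome 5 from 50945210 to 51012677, minus strand), the main partner of FOS, had 11 to 59 counts per library, with medians of 1.10, 0.991 and 1.20 CPM in NAMs, PPGL group 1 and PPGL group 2. Its log2 FC was 0.10 (SE 0.26, adjusted p = 0.784) between PPGLs and NAMs and 0.00 (SE 0.35, adjusted p = 0.999) between the tumor groups. These values are uncertain as a measure of JUN, because 995 of the 2879 exon bases (34.6%) are shared with an unnamed gene on the plus strand, ENSCAFG00000045211, from 50966637 to 50972890, and the strand setting of the counting is not stated. That neighbor, looked at after the values of JUN were seen, had a mean of 22.8 CPM over the tumors against 12.1 CPM over the NAMs (log2 FC 0.92, SE 0.24, adjusted p = 0.00317), with 14 of 19 tumors above every NAM. Which transcripts its counts come from was not tested.

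ATF3 (ENSCAFG00000012339, chromosome 7 from 10782064 to 10794163, plus strand) encodes a stress-induced factor that represses many of its targets. Its lowest, median and highest levels were 3.11, 12.2 and 65.7 CPM in NAMs, 1.37, 5.33 and 22.3 CPM in PPGL group 1, and 4.81, 25.1 and 127 CPM in PPGL group 2. All 7 tumors of PPGL group 1 lay below the median of PPGL group 2 and 3 of them below its lowest tumor, so the groups overlapped in part. The log2 FC between the tumor groups was -2.51 (SE 0.65, adjusted p = 0.0389). This call was lost under the Mann-Whitney U-test (adjusted p = 0.132) and with the cortex score as a covariate (log2 FC -3.70, adjusted p = 0.258).

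Relative to NAMs, neither tumor group passed the test for ATF3, with a log2 FC of -1.50 (adjusted p = 0.0769) for PPGL group 1 and of 1.03 (adjusted p = 0.155) for PPGL group 2. For all PPGLs it was 0.51 (SE 0.61, adjusted p = 0.540), in the fit of 3 groups it turned to -0.23, and with the cortex score as a covariate it was 2.22 (adjusted p = 0.0693). Most tumors of both groups lay inside the range of the NAMs, with 2 of PPGL group 1 below and 2 of PPGL group 2 above it.

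EGR1 (ENSCAFG00000001254, chromosome 11 from 26046228 to 26048575, plus strand) encodes a zinc finger factor known as an activator of PNMT, the enzyme that makes adrenaline. It ran from 22.5 to 833 CPM in NAMs (median 179), from 6.04 to 714 CPM in PPGL group 1 (median 211) and from 41.7 to 1394 CPM in PPGL group 2 (median 459). Like FOS it spanned a wide range in every group, with 3 tumors above every NAM and 2 below, the latter being replicates 6 and 7 of PPGL group 1. The log2 FC was 0.85 (SE 0.63, adjusted p = 0.300) between PPGLs and NAMs and -1.16 (SE 0.77, adjusted p = 0.428) between the tumor groups, neither past the threshold.

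NR4A1 (ENSCAFG00000007338, chromosome 27 from 2891053 to 2955655, minus strand) encodes NUR77, an orphan nuclear receptor that in steroid-producing cells also acts on steroidogenic genes. Its lowest, median and highest levels were 62.4, 759 and 2574 CPM in NAMs, 10.6, 52.7 and 237 CPM in PPGL group 1, and 28.1, 414 and 907 CPM in PPGL group 2. Of the 19 tumors, 18 lay below the median of the NAMs and 8 below every NAM, 4 of each group. The log2 FC between PPGLs and NAMs was -1.87 (SE 0.60, adjusted p = 0.0153). It was -3.53 (SE 0.82, adjusted p = 0.00139) for PPGL group 1 and -1.39 (SE 0.62, adjusted p = 0.0816) for PPGL group 2 when each was set against the NAMs.

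Between the tumor groups NR4A1 had a log2 FC of -2.14 (SE 0.76) that missed the threshold (adjusted p = 0.122), although it passed with the Wald test of DESeq2 (adjusted p = 0.0180), with all 29 samples in the fit (0.0635) and without replicate 3 of PPGL group 1 (log2 FC -2.64, adjusted p = 0.0858) or replicate 5 of PPGL group 2 (log2 FC -2.23, adjusted p = 0.0987). Over all its alternatives that adjusted p ran from 0.0180 to 0.662. With the cortex score as a covariate, the value between PPGLs and NAMs was -0.54 and the call was lost (adjusted p = 0.699). NAM replicate 10, the NAM with the lowest NR4A1 level, was also the lowest NAM for FOS, FOSB, JUNB, ATF3, EGR1 and NR4A3.

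NR4A3 (ENSCAFG00000045952, chromosome 11 from 56812804 to 56847689, plus strand) encodes NOR1, a receptor of the same family. It ranged from 2.52 to 155 CPM in NAMs (median 14.9), from 0.141 to 8.04 CPM in PPGL group 1 (median 1.44) and from 0.234 to 28.1 CPM in PPGL group 2 (median 8.15). NAM replicates 6 and 8 stood high, at 155 and 115 CPM, and 9 of 19 tumors lay below every NAM, 5 of PPGL group 1 and 4 of PPGL group 2. The log2 FC between PPGLs and NAMs was -2.24 (SE 0.74, adjusted p = 0.0171).

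The call of NR4A3 between PPGLs and NAMs was lost without NAM replicate 6 (log2 FC -1.65, adjusted p = 0.0853) or NAM replicate 8 (log2 FC -1.89, adjusted p = 0.0534), and with the cortex score as a covariate (log2 FC -0.76, adjusted p = 0.665). Side by side, NR4A3 had a log2 FC of -3.98 (SE 1.07, adjusted p = 0.00465) in PPGL group 1 and of -1.75 (SE 0.79, adjusted p = 0.0850) in PPGL group 2 against NAMs. The tumor groups differed by -2.22 (SE 0.95), short of the threshold (adjusted p = 0.205), and the Wald test of DESeq2 took this value past it (adjusted p = 0.0571, the lowest of a range up to 0.716 over its alternatives).

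The order of the members by median RPKM differed between the groups. In NAMs it ran NR4A1 (196), FOSL2 (162), JUNB (155), EGR1 (110), FOS (9.71), ATF3 (7.14), FOSB (7.07), NR4A3 (5.14), FOSL1 (0.705) and JUN (0.383). Neighbors in this order differed by more than 1 SD of their log2 difference over the samples only between EGR1 and FOS and between NR4A3 and FOSL1. EGR1 was higher than FOS in 10 of 10 NAMs.

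The order by median RPKM in PPGL group 1 was EGR1 (130), JUNB (105), FOS (34.8), NR4A1 (13.6), FOSL2 (10.7), FOSB (7.34), ATF3 (3.11), NR4A3 (0.497), JUN (0.344) and FOSL1 (0.117). Only ATF3 and NR4A3, and JUN and FOSL1, differed beyond that spread as neighbors. In PPGL group 2 it was JUNB (317), EGR1 (282), FOS (233), FOSL2 (114), NR4A1 (107), FOSB (35.9), ATF3 (14.6), NR4A3 (2.81), FOSL1 (1.71) and JUN (0.418), and the neighbors that differed beyond the spread were EGR1 and FOS, NR4A1 and FOSB, and ATF3 and NR4A3. FOS thus moved from the fifth place in NAMs to the third in both tumor groups. FOSL2 moved from the second place in NAMs to the fifth in PPGL group 1 and the fourth in PPGL group 2.

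Single tumors were high or low for many members at once. Replicate 4 of PPGL group 2 was among the 3 highest of the 19 tumors for 8 members and above the tumor median for all 10. Replicate 10 of PPGL group 2 was also above that median for all 10, and was among the 3 highest for 1. Replicate 7 of PPGL group 1 was among the 3 lowest tumors for 8 members, and replicate 6 of PPGL group 1 for 6. No tumor of PPGL group 1 was above the tumor median for more than 7 members.

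How the members go together across tumors was examined for all 45 pairs with Pearson's r and Spearman's rho on log2 CPM, each with a 2-sided permutation test and adjusted over the 45 pairs. FOS, EGR1, JUNB and FOSB were called with each other by r in both tumor groups. Across the 19 PPGLs, FOS and EGR1 had an r of 0.956 (permutation p = 1e-05, the smallest that 100000 resamples can give, adjusted p = 5e-05) and a rho of 0.923 (adjusted permutation p = 0.00015). Without the 2 tumors farthest from the median of FOS, r was 0.903. JUNB and EGR1 had an r of 0.940 (rho 0.905), and FOS and JUNB an r of 0.925 (rho 0.918). FOSB followed, with 0.903 (rho 0.867) to EGR1, 0.886 (rho 0.775) to JUNB and 0.880 (rho 0.879) to NR4A1, and then NR4A1 and NR4A3 with 0.875 (rho 0.839), each with an adjusted permutation p of 5e-05 for r.

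Over the 19 PPGLs, 43 of 45 pairs had a positive r, the median r was 0.594, and 36 pairs were called at an adjusted permutation p under 0.05 by r and 32 by rho. For all 107538445 pairs of genes tested between the tumor groups the median r was -0.001, 49.9% were positive, 3.68% had an r of at least 0.514, the smallest called value, and 1.71% an r of at least the members' median. The 9 pairs that were not called by r were those of JUN. FOSL1, with at most 3 counts in 5 of 7 tumors of PPGL group 1, took part in 8 of the 36 called pairs. Its pairs called by r numbered 0 within PPGL group 1 and 3 within PPGL group 2. The 8 pairs are therefore counted with the same reserve as its tests. Without the 2 tumors farthest from the median of the first gene, 6 of the 36 no longer had an unadjusted permutation p under 0.05, with fewer tumors also giving a weaker test. For FOS with FOSL1, r went from 0.546 to 0.452 (permutation p = 0.0682), and for ATF3 with EGR1 from 0.577 to 0.458 (permutation p = 0.0631). FOS with ATF3 had 0.530 and then 0.328, and JUNB with ATF3 0.514 and then 0.332, and the other 2 were FOSL2 with FOS and with FOSB.

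Part of these relations runs between the tumor groups. With values centered within each group, 19 pairs were called, and those lost all involved FOSL1, FOSL2, ATF3 or NR4A3. Leaving out 1 tumor gave 29 to 36 called pairs, with the lowest number without replicate 7 of PPGL group 1. Because FOSL2 separates the tumor groups without overlap, its relations are given within each group. In PPGL group 1 none of its pairs was called by the exact permutation test of r, and the largest r was 0.749, with NR4A3 (adjusted p = 0.236). In PPGL group 2 it was called with NR4A3 (r 0.716, adjusted permutation p = 0.0272, rho 0.755), and with JUNB by rho (0.678, adjusted permutation p = 0.0455) and not by r (0.634, adjusted permutation p = 0.0628).

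Within PPGL group 1 (n = 7), all 5040 pairings were enumerated, and 6 of 45 pairs were called by r in this exact permutation test. These were the 6 pairs among FOS, FOSB, JUNB and EGR1, with r between 0.926 and 0.964. By rho the exact permutation test called 0 pairs after adjustment, and 9 pairs had an unadjusted p under 0.05 by r. For 2 of the 6 called pairs, FOS with JUNB and FOSB with EGR1, the unadjusted exact p without the 2 farthest tumors was 0.0917 and 0.0583. The remaining 5 tumors leave little room for such a test.

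Within PPGL group 2 (n = 12), all 45 pairs had a positive r, and the permutation test called 19 pairs by r and 18 by rho, 17 of them by both. FOS and EGR1 had an r of 0.959 (rho 0.895), NR4A1 and NR4A3 an r of 0.945 (rho 0.762) and FOSB and NR4A1 an r of 0.916 (rho 0.846). By r, NR4A3 was called with FOS (r 0.834), FOSB (r 0.821), JUNB (r 0.877) and EGR1 (r 0.756) in PPGL group 2, and by rho with all of these but FOSB (rho 0.650, adjusted permutation p = 0.0618). Without the 2 tumors farthest from the median of the first gene, 3 of the 19 pairs had an unadjusted permutation p of at least 0.05, EGR1 with NR4A3 (r 0.604, p = 0.0685), FOSB with FOSL1 (r 0.611, p = 0.0607) and FOSL1 with NR4A1 (r 0.619, p = 0.0575). The r of NR4A3 with these genes in PPGL group 1 lay between 0.0554 and 0.271, and whether the tumor groups differ in this was not tested. ATF3 was called with FOSL1 alone in PPGL group 2, by r (0.744) and not by rho (0.629, adjusted permutation p = 0.0734).

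In the 10 NAMs, 41 of 45 pairs had a positive r, and 9 were called by r and 9 by rho. The highest values joined FOSB to ATF3 (r 0.969, rho 0.964), FOSB to NR4A3 (r 0.948, rho 0.927) and ATF3 to NR4A3 (r 0.920, rho 0.891), with adjusted permutation p-values of 0.000675, 0.000675 and 0.00600. NAM replicates 6 and 8 had the highest levels of FOSB, ATF3 and NR4A3 among NAMs, and also the highest cortex scores (9.98 and 10.26). Relations to the cortex score within NAMs were not tested. FOS was called with JUNB (r 0.845, rho 0.830) and EGR1 (r 0.826, rho 0.794), each with an adjusted permutation p of 0.0203. Without the 2 NAMs farthest from the median of FOS, FOS and EGR1 had an r of 0.686 (permutation p = 0.0616), and FOSL2 and NR4A3, at 0.823 in all 10, had 0.704 without the 2 farthest from the median of FOSL2 (permutation p = 0.0534). FOS and FOSB had an r of 0.360 in NAMs, 0.931 in PPGL group 1 and 0.884 in PPGL group 2, and these differences were not tested.

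**Figure D2:**
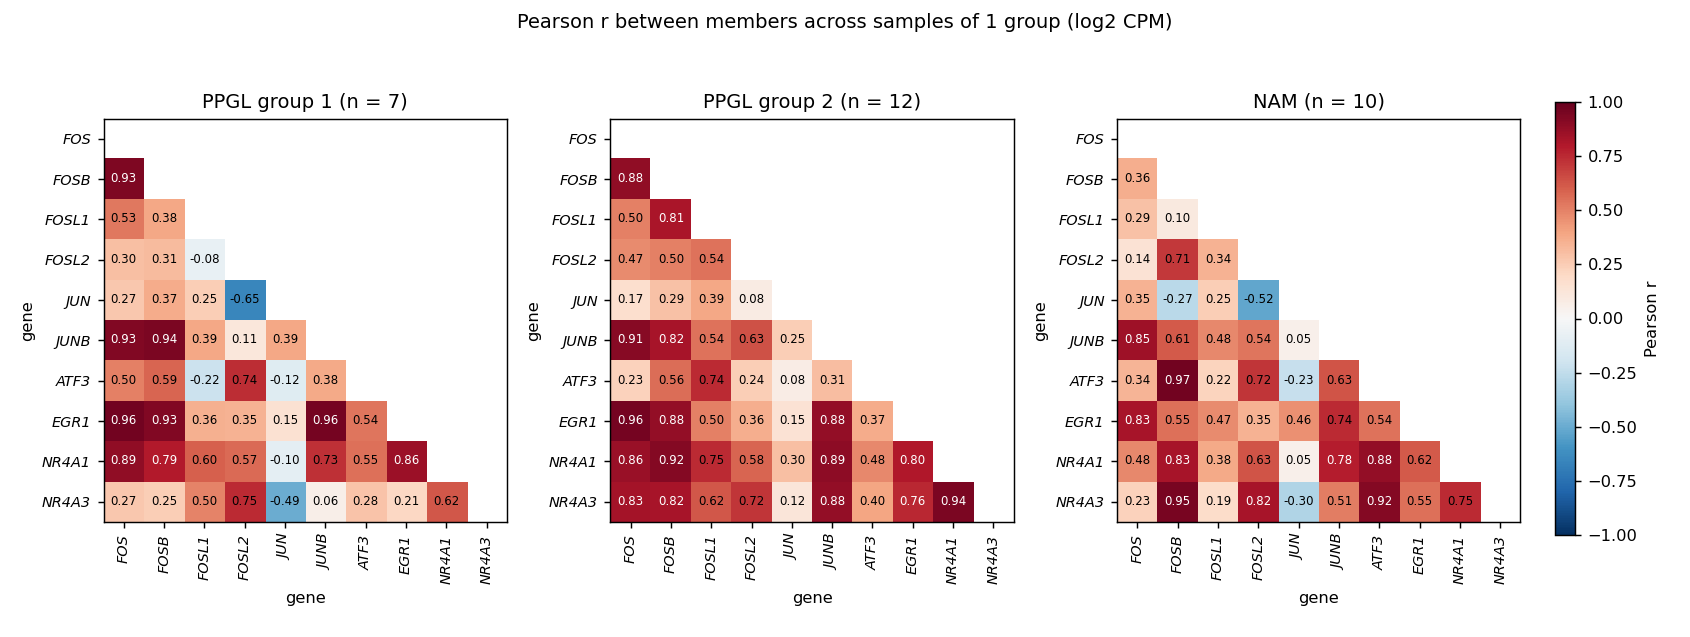
Pearson r between the members, computed on log2 CPM within 7 tumors of PPGL group 1, 12 tumors of PPGL group 2 and 10 NAMs, with genes on both axes and r as color and number. FOS, FOSB, JUNB and EGR1 have an r of at least 0.82 with each other in both tumor groups, and in NAMs the highest r joins FOSB and ATF3.

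Genes that go with FOS across the 19 tumors were sought with an edgeR fit of the slope on FOS log2 CPM with tumor group as a term. Of 14665 genes tested, 6 were called with a positive slope (0.0409%) and 0 with a negative one (0%), and at an unadjusted p under 0.05 the numbers were 810 and 826. No other tool was run for these slopes. Among the 9 other members, 3 were called with a positive and 0 with a negative slope, and 5 and 0 had an unadjusted p under 0.05. EGR1 rose by 0.81 per log2 unit of FOS (SE 0.08, adjusted p = 0.000127), JUNB by 0.53 (SE 0.06, adjusted p = 0.000331) and FOSB by 0.77 (SE 0.13, adjusted p = 0.0273). NR4A1 had a slope of 0.61 (SE 0.11, adjusted p = 0.0652), and the others had slopes between 0.08 and 0.45 with adjusted p-values of at least 0.388. The median slope was 0.45 over the members and 0.00 over all genes.

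The other 3 genes called with FOS were IER2, a short-lived nuclear protein (slope 0.61, SE 0.07, adjusted p = 0.000178), DUSP1, the phosphatase that switches off MAP kinases (slope 0.43, SE 0.06, adjusted p = 0.00691), and DGKA, a diacylglycerol kinase (slope 0.26, SE 0.05, adjusted p = 0.0389). ZFP36, which speeds the decay of AU-rich messages, and EGR2, a relative of EGR1, came next with slopes of 0.54 and 0.76 (adjusted p = 0.0652 and 0.0667). Without the group term 35 genes were called, NR4A1 among them (slope 0.71, adjusted p = 0.00466). The same 3 members were called when the leukocyte score was added or when the 2 tumors farthest from the median of FOS were left out, with adjusted p-values up to 0.0489.

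**Figure D3:**
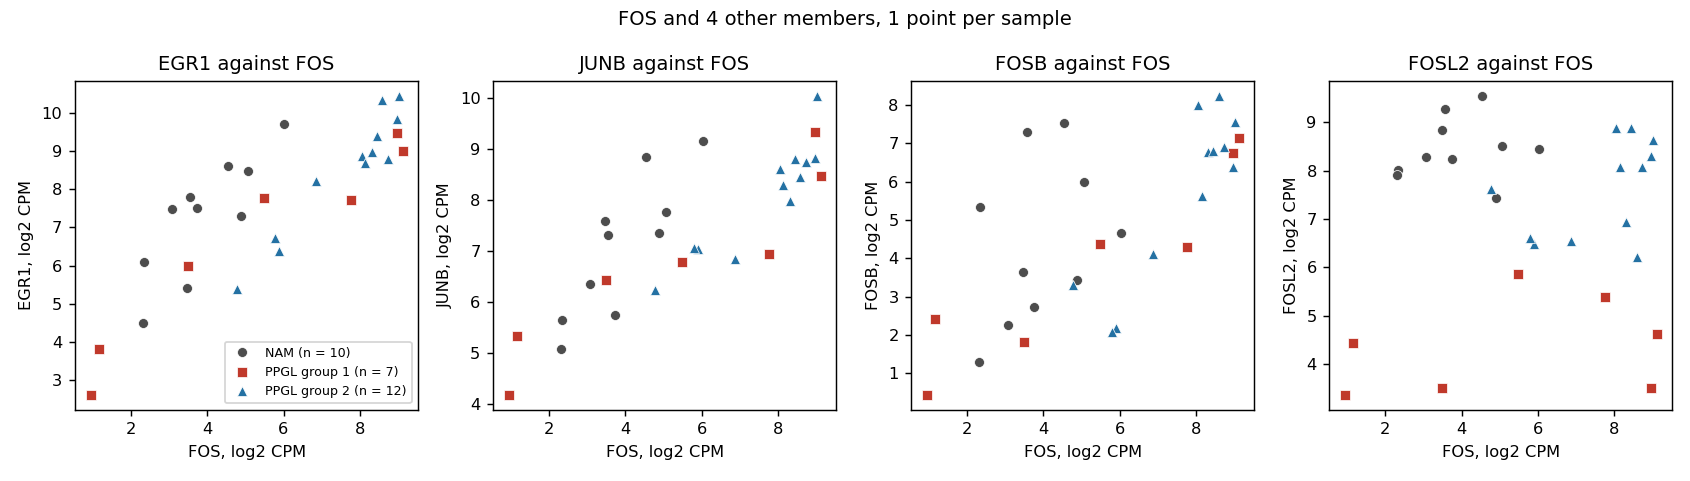
Log2 CPM of EGR1, JUNB, FOSB and FOSL2 against log2 CPM of FOS, with 1 point per sample (10 NAMs and 19 PPGLs). EGR1 and JUNB follow FOS within each group, with r of 0.964 and 0.929 in PPGL group 1 and 0.959 and 0.913 in PPGL group 2, and NAMs lie at lower FOS for a like level of EGR1.

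For each member, the 3 named genes outside the set with the most similar pattern were taken by Spearman's rho over the 19 PPGLs among 12338 genes, as a ranking and not as a test. FOS went with IER2 (rho 0.928), DUSP1 (0.851) and ZFP36 (0.819), JUNB with DUSP1 (0.898), IER2 (0.865) and KLF4 (0.860), and EGR1 with IER2 (0.898), EGR2 (0.893) and ZFP36 (0.888). FOSB went with ZFP36 (0.921), EGR3 (0.867) and BTG2 (0.865). All of these belong to the lists of early response or feedback genes described below. NR4A1 had CXCL8 (rho 0.914), BTG2 (0.909) and IL6 (0.896) as its nearest genes, and NR4A3 had MIDN (0.816), CD274 (0.812) and IL6 (0.811).

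For the remaining members most of the nearest genes were on none of the lists. FOSL1 went with SAT1 (rho 0.902), GADD45B (0.896) and TNFRSF12A (0.881), and ATF3 with MTF1 (0.886), TRIB1 (0.805) and PPP1R9A (0.802), where GADD45B and TRIB1 are on the list of early response genes. FOSL2 went with C7 (0.851), IL1RAP (0.849) and SEMA3A (0.845). Within PPGL group 1 the rho of FOSL2 with the same genes was 0, 0.464 and 0.259, and within PPGL group 2 it was 0.741, 0.538 and 0.524. JUN went with IGSF23 (0.786), BCL9L (0.760) and TMEM225B (0.751), none of which is on any of the lists.

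Further immediate early and early response genes were taken as a list, of which 35 of 39 were found. Between PPGLs and NAMs 10 of the 35 were higher and 5 lower, with a median log2 FC of 0.52, where 22.3% and 15.2% of all genes were called and their median was 0.13. DESeq2 gave 11 higher and 5 lower, but the Mann-Whitney U-test gave 3 higher and 4 lower. EGR2 rose with a log2 FC of 2.65 (adjusted p = 0.0101) and EGR3, another zinc finger factor of the EGR family, with 2.50 (adjusted p = 0.0231). NPAS4, a factor induced by calcium entry, averaged 0.0665 CPM in NAMs, under the floor, and 5.79 CPM in PPGLs, with 13 of 19 tumors above every NAM, and it entered the test through the tumors only. When the tumor groups were compared, 1 of the 35 was higher in PPGL group 1, PLK2, and 4 were lower, GADD45B, BTG2, TRIB1 and CSRNP1, with a median log2 FC of -1.02, where DESeq2 gave 1 and 10 and the Mann-Whitney U-test 0 and 1. The shares of all genes called by edgeR in this contrast were 3.97% higher and 2.95% lower. With FOS, 1 of the 35 listed genes was called, IER2, and the median slope was 0.22. At an unadjusted p under 0.05 in edgeR, 19 of them had a positive and 0 a negative slope on FOS, against 810 and 826 of all genes.

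Of 18 other AP-1 and bZIP partners 17 were found, with a median log2 FC of 0.01 between PPGLs and NAMs. Of the 17, 2 were higher and 4 lower in PPGLs, where 22.3% and 15.2% of all genes were called. BATF2 fell by 1.27 on the log2 scale (adjusted p = 0.000802) and MAF by 0.97 (adjusted p = 0.00439), whereas ATF5 rose by 1.08 (adjusted p = 0.00169). Between the tumor groups edgeR called 0 of the 17, with 1 higher and 2 lower at an unadjusted p under 0.05, 0 higher and 1 lower by DESeq2 and 0 by the Mann-Whitney U-test, and the median log2 FC was -0.21.

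Negative feedback genes, which encode phosphatases and repressors that end the response, were found for 18 of 19 names, with 3 higher and 1 lower in PPGLs by edgeR and DESeq2, 1 and 1 by the Mann-Whitney U-test, and a median log2 FC of 0.35. Beside this stand 22.3% of all genes called higher and 15.2% lower by edgeR. CREM, whose short form represses cAMP-driven genes, had a log2 FC of -1.20 (adjusted p = 0.0153). DUSP8, a phosphatase of JNK and p38 kinases, had 0.98 (adjusted p = 0.0378), and NAB2, which binds and represses EGR proteins, had 0.76 (adjusted p = 0.0117). Lower in PPGL group 1 than in PPGL group 2 were 3, DUSP4, DUSP5 and ZFP36L1, with 4 by DESeq2, 2 by the Mann-Whitney U-test and a median log2 FC of -0.27 over the list, and 0 were higher by edgeR, with 1 at an unadjusted p under 0.05 and 0 by DESeq2 and by the Mann-Whitney U-test. Here edgeR called 2.95% of all genes lower and 3.97% higher. DUSP1 averaged 166 CPM in NAMs, 88.9 CPM in PPGL group 1 and 206 CPM in PPGL group 2.

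All 24 upstream kinases and transcription factors were found, with a median log2 FC of 0.08 between PPGLs and NAMs. Of the 24, 4 were higher and 2 lower in PPGLs, where 22.3% and 15.2% of all genes were called. SRF, which drives FOS and EGR1 through their serum response elements, rose by 0.60 (SE 0.15, adjusted p = 0.00224), RPS6KA1, a kinase below ERK, rose by 0.87 (adjusted p = 0.0263), and PRKACB, a catalytic subunit of protein kinase A, fell by 0.91 on the log2 scale (adjusted p = 0.00595). The tumor groups gave 0 calls by edgeR, by DESeq2 or by the Mann-Whitney U-test, 0 had an unadjusted p under 0.05, and the median log2 FC was -0.05.

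Among reported targets of AP-1, 19 of 20 were found and 15 were tested between PPGLs and NAMs, of which 9 were higher and 1 was lower, with a median log2 FC of 1.30. Of all genes tested, 22.3% were called higher and 15.2% lower. For the listed targets DESeq2 also gave 9 and 1, and the Mann-Whitney U-test gave 5 and 1. IL6 was among the higher ones, with means of 0.269 CPM in NAMs and 15.5 CPM in PPGLs and 13 of 19 tumors above every NAM, and with so low a mean in NAMs its count among the higher ones says no more than these levels. PTGS2, the inducible cyclooxygenase, had a log2 FC of 2.49 (adjusted p = 0.0440), and PLAU, the urokinase protease, had 2.09 (adjusted p = 0.00189), with 17 of 19 tumors above every NAM. Lower in PPGL group 1 than in PPGL group 2 were 4 of the targets, PTGS2 and CXCL8 included, with 5 by DESeq2, 1 by the Mann-Whitney U-test and a median log2 FC of -0.82, and 0 were higher by edgeR, at an unadjusted p under 0.05, by DESeq2 or by the Mann-Whitney U-test. Between these groups edgeR called 2.95% of all genes lower and 3.97% higher.

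Heat shock genes, read as a general sign of stress, were found for 10 of 14 names, with a median log2 FC of 0.38. Of the 10, 2 were higher and 1 was lower in PPGLs, where 22.3% and 15.2% of all genes were called. DNAJB1 rose by 1.41 (adjusted p = 0.00870) and HSP90AA1 by 0.74 (adjusted p = 0.0122), while HSPA8 fell by 0.84 on the log2 scale (adjusted p = 0.00589). None differed between the tumor groups: 0 were called by edgeR, DESeq2 or the Mann-Whitney U-test and 0 had an unadjusted p under 0.05, with a median log2 FC of -0.03. Across tumors, edgeR gave 0 heat shock genes a called slope on FOS, and at an unadjusted p under 0.05 there were 3 with a negative and 0 with a positive slope.

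Markers of cell types were counted in the same way, beside 22.3% of all genes called higher and 15.2% called lower in PPGLs. Of 12 chromaffin markers found among 13, 3 were higher and 1 was lower in PPGLs (median log2 FC 0.42), with PHOX2A, a factor of the sympathoadrenal lineage, higher by 2.17 (adjusted p = 1.75e-07) in 19 of 19 tumors above every NAM. HAND2, of the same lineage, was higher by 1.41 (adjusted p = 0.000804), and PNMT had a log2 FC of -1.94 (adjusted p = 0.0177). Of 10 cortex markers found among 11, 9 were lower in PPGLs (median log2 FC -3.22) and 9 lower in PPGL group 1 than in PPGL group 2 (median -6.63). MRAP, INHA and CYP11A1 had log2 FCs of -3.63, -3.55 and -3.43 between PPGLs and NAMs. Of 10 endothelial markers 5 were lower in PPGLs (median -0.73), with log2 FCs of -1.14 for TEK, -1.09 for KDR and -0.85 for EMCN.

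Of 13 leukocyte markers found among 14, 11 were tested and 3 were higher and 1 was lower in PPGLs (median log2 FC 0.32), with values of 2.88 for CD4, 1.93 for CD3E and 1.64 for CD8A. DESeq2 gave 3 higher and 2 lower, but the Mann-Whitney U-test gave 0 higher and 3 lower, and the median of the summed leukocyte marker CPM was 771 in NAMs, 574 in PPGL group 1 and 536 in PPGL group 2, so no common direction was found for this list. Of 6 neutrophil markers found among 7, 5 were tested and 4 were higher (median 3.87). CSF3R rose by 3.87 and S100A12 by 4.57, and MPO averaged 0.00774 CPM in NAMs, under the floor, and 1.28 CPM in PPGLs. With so low a mean in NAMs, a count of MPO among the higher ones says no more than these levels. Of 12 fibroblast and smooth muscle markers 7 were higher (median 1.67), led by COL1A1 (3.72), COL3A1 (3.09) and LUM (2.43), while DESeq2 gave 4 higher and 1 lower and the Mann-Whitney U-test 2 and 1. Replicate 11 of PPGL group 2 stood apart for 3 of these lists. Its mean log2 CPM was 9.95 for fibroblast and smooth muscle, 6.31 for neutrophil and 5.84 for leukocyte markers. The next highest samples had 7.43, 3.83 and 4.42. Of the 4 Schwann cell markers tested, out of 5, edgeR called 0 in either direction between PPGLs and NAMs (median -1.0), with 1 lower at an unadjusted p under 0.05, 1 lower by DESeq2 and 3 lower by the Mann-Whitney U-test.

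The same lists were compared between the tumor groups, where 3.97% of all genes were called higher and 2.95% lower in PPGL group 1. HAND2, 1 of the chromaffin markers, was higher in PPGL group 1 (list median 0.36), with 4 of the list higher at an unadjusted p under 0.05, 3 by DESeq2 and 0 by the Mann-Whitney U-test. Lower were 2 neutrophil markers, S100A12 and CSF3R (list median -2.26), with 3 at an unadjusted p under 0.05, 3 by DESeq2 and 0 by the Mann-Whitney U-test. Of the fibroblast and smooth muscle markers, CNN1 was lower (list median -2.02), with 8 of 12 lower at an unadjusted p under 0.05, 2 by DESeq2 and 0 by the Mann-Whitney U-test. EdgeR called 0 endothelial (median 0.07), 0 leukocyte (median -0.64) and 0 Schwann cell markers (median 0.48). At an unadjusted p under 0.05 there were 1, 4 and 0 of these, by DESeq2 0, 1 and 0, and by the Mann-Whitney U-test 0, 0 and 0.

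The level of each member was set against 8 scores, the mean log2 CPM of the heat shock genes and of each of the 7 cell type lists, within each tumor group, which made 80 relations per group. In neither group was any relation called by r or rho after adjustment over the 80 (permutation tests, exact in PPGL group 1), and 7 in PPGL group 1 and 4 in PPGL group 2 had an unadjusted p under 0.05 for r. The largest r in PPGL group 1 were those of JUNB and EGR1 with the neutrophil score, 0.905 and 0.896 (exact permutation test, adjusted p = 0.270 and 0.294), and without the 2 farthest tumors they were 0.708 and 0.409. In PPGL group 2 the largest was that of FOSL2 with the Schwann cell score, -0.750 (rho -0.699, permutation test, adjusted p = 0.446), and FOSL2 with the chromaffin score had -0.620 (rho -0.727, adjusted p = 0.661 for r). FOS and the leukocyte score had an r of 0.849 (rho 0.821, exact permutation test, adjusted p = 0.358) in PPGL group 1 and of 0.408 (rho 0.357, permutation test, adjusted p = 0.661) in PPGL group 2.

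A pair of further relations was set because the enzymes are textbook targets of these factors in chromaffin cells. EGR1 and PNMT had an r of 0.155 over the 19 PPGLs (permutation p = 0.525, adjusted p = 0.525) and a rho of 0.0228, and without the 2 tumors farthest from the median of EGR1 r was -0.0622. FOS and TH had an r of -0.296 (permutation p = 0.213, adjusted p = 0.426) and a rho of -0.195, and -0.242 without the 2 farthest tumors. In neither tumor group, nor in NAMs, was either relation called, with r for EGR1 and PNMT of 0.314, -0.0767 and 0.450 in PPGL group 1, PPGL group 2 and NAMs, and r for FOS and TH of -0.640, -0.163 and 0.185. Without the 2 NAMs farthest from the median of FOS, the last of these turned to -0.852 (permutation p = 0.0109).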

How the data were processed

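RNA of 29 samples was sequenced and the authors deposited a table of raw read counts per Ensembl gene. Per the submitters' processing notes, FastQC, STAR, Picard and HTSeq were used with CanFam3.1, and 1 label names another counting program. Counts were analysed with edgeR 4.0.16 in R 4.3.3 (filterByExpr with a minimum count of 10 and a minimum total of 15, TMM, quasi-likelihood F test, Benjamini-Hochberg adjustment over all genes tested), with DESeq2 1.42.0 and limma 3.58.1, and with Python 3.11.15, numpy 2.4.6, pandas 2.3.3 and matplotlib 3.10.9. Genes were called at an adjusted p under 0.05, or under 0.1 between the tumor groups, and also counted past a log2 FC of 3 in either direction. Levels are CPM, log2 CPM with a prior count of 2, or RPKM from the exon lengths of the table. Correlations used 2-sided permutation tests with 100000 resamples, or all 5040 pairings for the 7 tumors of PPGL group 1. A floor of 3 counts per library was used.

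Alternatives were DESeq2 size factors, library size alone, no filter, a filter of 1 CPM, the sample numbers as a replicate block, a cortex or leukocyte score as a covariate, 3 groups in 1 fit, the Wald test of DESeq2, the Mann-Whitney U-test on CPM (exact where values were not tied), each sample left out in turn and, for pairs, a smaller prior count, library size alone and centering within groups. Named genes were the 10 members, the 3 genes of each list with the largest called change between PPGLs and NAMs, the 3 genes most like each member, the 5 genes outside the members with the smallest p for the slope on FOS, the pairs of EGR1 with PNMT and FOS with TH, chromaffin and cortex markers for the tissue check, and, after their values were seen, genes of the lists called between the tumor groups, the gene overlapping JUN and the levels of DUSP1. The members and lists were chosen with earlier results of these data known. The lists were other immediate early and early response genes, other AP-1 and bZIP partners, negative feedback genes, upstream kinases and transcription factors, reported AP-1 targets, heat shock genes, and markers of chromaffin cells, adrenal cortex, endothelium, leukocytes, neutrophils, fibroblasts and smooth muscle, and Schwann cells. The names CYP11B2, CHGA, HSPA1A, HSP90AB1, HSPD1, HSPE1, CD14, SOCS3, S100A9, BATF, KLF2, ARC, SIK1, CEBPD and CCL2 were not found. The steps were tested on simulated data.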

Additional observations from a re-analysis of the deposited data

Results flagged for a closer look

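For FOSL2 and ATF3 the changes of the tumor groups against the same NAMs differed from each other in the contrast without covariates, as tested by the contrast of PPGL group 1 minus PPGL group 2 in edgeR. The log2 difference was -3.21 for FOSL2 (SE 0.51, adjusted p = 0.00541) and -2.51 for ATF3 (SE 0.65, adjusted p = 0.0389). Both calls were lost with the cortex score as a covariate (adjusted p = 0.111 for FOSL2 and 0.258 for ATF3), where the log2 differences were -3.44 and -3.70. The call of ATF3 was also lost under the Mann-Whitney U-test (adjusted p = 0.132). FOSL1 had a log2 difference of -3.61, but it passed the filter only through the 7 tumors of PPGL group 2 that were needed, with 0 of 7 tumors of PPGL group 1 over it, so its test is not taken as support. In 20 sets of values, the 10 members each in NAMs and in PPGL group 1, a sample far from the others was sought and 0 were found, where chance gives about 1 in 20, and PPGL group 2 with 12 tumors was not examined in this way.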

How the results depend on the processing

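Of 1925 values under 45 alternatives, 1806 kept their direction and their side of the threshold, or stayed within 1.5 times the count, and 27 changed sign. The 5541 genes called between PPGLs and NAMs became 2224 with the cortex score, and the 2 members called lower became 0 with it and 1 to 3 when 1 sample was left out. Between the tumor groups the 1015 genes called became 0 with the cortex score, 2567 with all 29 samples in the fit, 1793 with the Wald test of DESeq2, 299 with the Mann-Whitney U-test and 525 to 1218 when 1 sample was left out, with 525 without replicate 7 of PPGL group 1 and 674 without replicate 4 of PPGL group 2. The 3 members called lower became 0 with the cortex score, 5 with the Wald test and 1 with the Mann-Whitney U-test. With the cortex score the log2 FCs of FOSL2, ATF3 and FOSL1 were -3.44, -3.70 and -3.26, against -3.21, -2.51 and -3.61 without it. The 6 genes called with FOS became 35 without the group term, and the 36 called pairs became 19 when centered within groups. Signs turned between PPGLs and NAMs for FOSL1 (-0.84 with 3 groups, -0.0604 to 0.643 when 1 sample was left out), FOSL2 (0.46 with the cortex score) and ATF3 (-0.23 with 3 groups). Between the tumor groups JUN, at -0.00147, turned to 0.00238 with DESeq2 size factors, 0.0861 with library size, 0.00240 with a filter of 1 CPM, 0.242 with the cortex score, 0.0281 with the leukocyte score and 0.00142 with the Wald test, and ran from -0.32 to 0.14 when 1 sample was left out. Among pairs, JUN and ATF3 turned to -0.0184 when centered and ran from -0.0548 to 0.193, FOSL2 and JUN from -0.149 to 0.180, and JUN and NR4A3 from -0.200 to 0.130 when 1 tumor was left out. With the sample number as a replicate block in edgeR, 47 genes and 1 member lower were called between the tumor groups, and FOSL1 was -0.42 between PPGLs and NAMs. The block also lost the calls of ATF3 (-2.26, adjusted p = 0.289) and FOSL1 (-2.62, adjusted p = 0.420) between the tumor groups. Between PPGLs and NAMs it lost that of NR4A3 (-2.20, adjusted p = 0.0599), and FOSL2 passed (-1.70, adjusted p = 0.0305). The numbers count different animals, and 24 pairs of samples with the same number in different groups had correlations of -0.232 to 0.251 (median -0.0132), where pairs with different numbers had a median of 0.00161. The cause of these changes was not tested.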
